A study of Mus musculus with 24 samples.

Results

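Interferon-stimulated genes are the genes that cells switch on when interferon reaches them. A list of 44 such genes was followed in 4 tissues of young and aged mice, and 41 of the 44 had a probe on the array. Members were chosen by symbol: each probe's RefSeq accession was looked up, version removed, among the mouse genes of GRCm38.p6, and the brightest probe of a gene stood for it in each tissue. Mx1, Mx2 and Tgtp1 had no probe matched in this way and have no value here. The whole array holds 22911 matched symbols.

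The samples were kidney, liver, lung and white adipose tissue (WAT) from male C57BL/6J mice that were 10 weeks (10W, young) or 90 weeks old (90W, aged), with 3 mice in each of the 8 groups and 1 array per sample, 24 in all. No sample was treated, no allele was altered, and the aged livers carry the numbers 1, 2 and 4. All 6 arrays of a tissue, both ages together, lay on 1 slide, so age was compared within a slide, whereas tissue and slide cannot be told apart. The labels call the samples replicates without saying whether organs with the same number came from 1 mouse.

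Interferons are secreted proteins, and type I interferons (alpha and beta) and type II interferon (gamma) bind different receptors. Both kinds of receptor signal through Janus kinases. Type I interferons act mainly on genes that carry the interferon-stimulated response element (ISRE), and interferon gamma on genes that carry the gamma-activated site (GAS). The genes induced encode sensors of viral nucleic acid, transcription factors that amplify the response, and proteins that block viral growth, and many are expressed at a low level in tissues without infection.

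To show these elements in the genes measured, the RefSeq table of gene starts (build GRCm38.p6, not the mm9 build of the array) was searched in the 250 bases before each start, on both strands, for the ISRE (the letters GAAA, any 2 bases and GAAA) and for the GAS (TTC, any 3 bases and GAA, which reads the same on both strands). It lists 34 of the 44 members, Tgtp1 among them. An ISRE match stood before 18 of the 34 (52.9%) and before 3.46% of all 27025 symbols listed, and a GAS match before 11 (32.4%) against 8.13%. In 8 members the ISRE matched more than once, and in 1 a match of each kind overlapped. All 8 listed genes of the guanylate binding protein and immunity related GTPase families held an ISRE match, and 5 of them a GAS match. The letters of neither motif were found before 12 members, among them Irf7, Ifitm3, Lgals3bp, Oasl1 and Oasl2. The 6 stretches below each give the 120 bases that end at the start of transcription, read 5′ to 3′ along the gene's strand, with matches in capitals. They are shown because these genes carry the main patterns of the results: no overlap between ages in any tissue (Oas1a and Oas1g), a rise called in the kidney alone (Isg15), a rise called in kidney and liver (Ifit1 and Gbp2), and a rise called in the lung and not in the kidney (Rsad2).
Oas1a: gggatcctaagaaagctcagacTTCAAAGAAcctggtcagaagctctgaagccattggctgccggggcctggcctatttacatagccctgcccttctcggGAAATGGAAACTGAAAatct
Oas1g: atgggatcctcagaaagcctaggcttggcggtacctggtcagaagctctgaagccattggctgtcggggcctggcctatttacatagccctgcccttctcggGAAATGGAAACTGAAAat
Isg15: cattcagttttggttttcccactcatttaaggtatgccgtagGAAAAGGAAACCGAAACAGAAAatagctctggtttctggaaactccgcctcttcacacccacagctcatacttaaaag
Ifit1: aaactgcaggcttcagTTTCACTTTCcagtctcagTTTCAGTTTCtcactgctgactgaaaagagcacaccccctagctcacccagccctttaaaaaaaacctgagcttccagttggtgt
Rsad2: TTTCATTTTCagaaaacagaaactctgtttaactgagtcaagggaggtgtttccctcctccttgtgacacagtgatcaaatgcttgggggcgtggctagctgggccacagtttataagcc
Gbp2: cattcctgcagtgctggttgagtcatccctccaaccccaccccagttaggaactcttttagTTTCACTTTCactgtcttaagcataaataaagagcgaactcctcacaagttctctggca

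The stretch of Oas1a lies at chr5:120907526-120907645 and that of Oas1g at chr5:120887614-120887733, both on the minus strand. They share an identical run of 56 bases that includes the pair of overlapping ISRE matches, which begin 20 and 14 bases before the start of Oas1a and 18 and 12 bases before that of Oas1g. Oas1a also holds a GAS match, which begins 98 bases before its start. Isg15 (chr4:156200819-156200938, minus strand) holds 3 overlapping ISRE matches, Ifit1 (chr19:34640769-34640888, plus strand) holds 2 separate ones, and Rsad2 (chr12:26456453-26456572, minus strand) and Gbp2 (chr3:142620543-142620662, plus strand) hold 1 each. A match of letters is a description of the sequence and not evidence that a factor binds there.

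Levels below are the log2 of the processed fluorescence signal minus the 75th percentile of the array. A level of 0 is therefore the signal of the probe at that percentile, and a difference of 1 is a 2-fold difference. Probes differ in brightness, so levels are compared between samples and not between genes. A gene was called when the adjusted p from limma, over all genes of the tissue, was under 0.05. All 41 members could be tested in every tissue, and in 162 of the 164 pairs of member and tissue the signal was well above background on all 6 arrays. Probes of close relatives, such as Oas1a with Oas1g and the guanylate binding proteins with each other, may share signal. In whole tissue, more cells that carry a transcript cannot be told apart from more transcript per cell.

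Members were higher in aged mice in kidney, liver and, for a smaller number, lung. In the kidney 36 of 41 were called higher and none lower, where 20.6% of the 31505 genes tested were called higher and 42.6% lower. In the liver 22 of 41 were called higher and none lower, where 10.5% of 27906 genes were called higher and 17.0% lower. Of the 41 in the lung, 7 were called higher and none lower, beside 2.72% and 2.89% of 30327 genes. In WAT none of 41 was called in either direction, where 2.01% of 30063 genes were called higher and 0.579% lower, and 6 members had an unadjusted p under 0.05 and were higher (9.86% of all genes). The median change of the members was 1.55 in the kidney, 0.90 in the liver, 0.59 in WAT and 0.31 in the lung on the log2 scale, and the median over all genes tested was -0.23, -0.20, -0.05 and -0.08.

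Another description needs no threshold, namely the number of members whose 3 aged mice all lay above the 3 young mice. It was 39 of 41 in the kidney (23.1% of all genes there), 30 in the liver (16.8%), 21 in the lung (11.6%) and 13 in WAT (13.7%). Iigp1 in the liver was the 1 case of a member with all aged mice below all young mice (33.1% of all genes there). The change was positive in all 4 tissues for 31 members, as for 12.1% of all 25797 genes tested in all 4. In 10 members every aged mouse lay above every young mouse in each tissue (2.72% of these genes), namely Dhx58, Oas1a, Oas1g, Oas2, Oas3, Oasl1, Oasl2, Rtp4, Trim30a and Parp14. Of the 22 members called in the liver 20 were also called in the kidney, and of the 7 called in the lung 6, which is near the share of all members called in the kidney (87.8%). The same 6 were called in all 3 of these tissues (1.59% of the 26172 genes tested in the 3), namely Oas1a, Oas1g, Oas2, Irf7, Zbp1 and Trim30a. Igtp and Irgm2 were the only 2 members called nowhere.

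**Figure D1:**
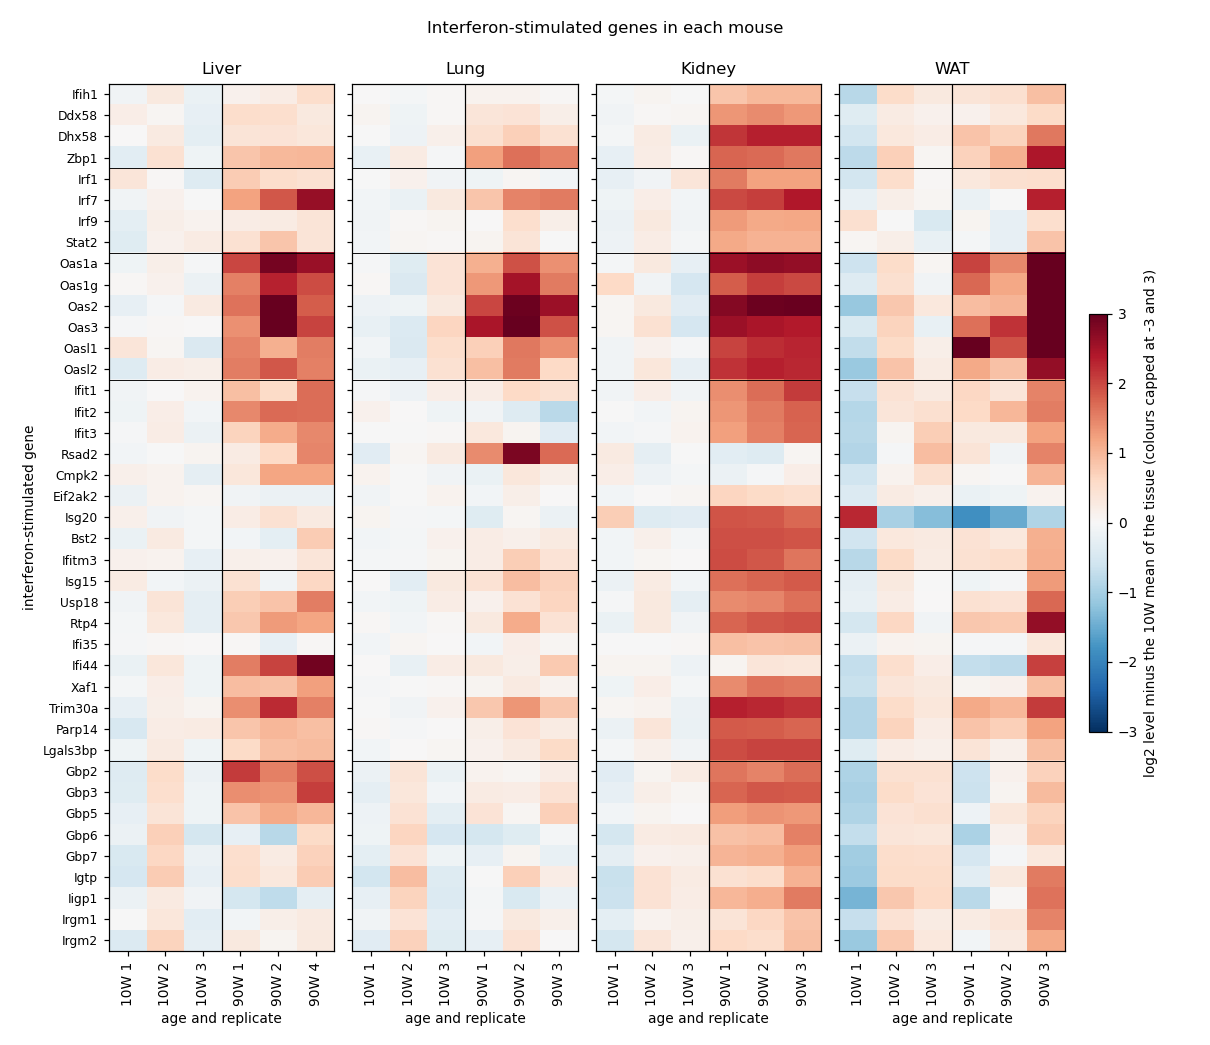
Log2 level of each of the 41 interferon-stimulated genes (rows, with lines between roles) in each mouse (columns), minus the mean of the 3 young mice of the tissue, with colours that stop at -3 and 3. The aged kidneys lie above all young kidneys in 39 rows, the OAS rows are red in the aged mice of every tissue, and in WAT aged mouse 3 is the highest of the aged mice in all 41 rows.

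The OAS family makes the second messenger that activates RNase L, which degrades RNA in infected cells. The largest change of any member in each of the 4 tissues was that of an OAS gene. All 6 family members were called in kidney and liver, 3 of 6 in the lung and none in WAT, and in each of the 4 tissues all 6 had every aged mouse above every young mouse.

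Oas1a encodes an enzyme that makes this messenger. Its level in the kidney was 0.16, 0.50 and -0.03 in the young mice and 2.77, 2.90 and 2.86 in the aged mice. In the liver it was 1.49, 1.79 and 1.60 in young and 3.64, 4.50 and 4.22 in aged mice, and in the lung 1.51, 1.17 and 1.94 in young and 2.60, 3.46 and 2.91 in aged mice. The aged mice were higher in each case, and the change was 2.63 ± 0.15 (SE, n = 3 per age) in the kidney (adjusted p = 7.5e-05), 2.49 ± 0.25 in the liver (adjusted p = 0.0022) and 1.45 ± 0.28 in the lung (adjusted p = 0.0454). In WAT the levels were 0.68, 1.85 and 1.36 in young and 3.33, 2.74 and 4.62 in aged mice, a change of 2.27 ± 0.54 that did not pass (adjusted p = 0.0968).

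Oas2, another enzyme of the family, showed the largest change of any member in the kidney. It rose there from -2.19, -1.95 and -2.57 to 0.51, 0.71 and 0.72, a 7.39-fold difference (log2 change 2.89 ± 0.17, adjusted p = 9.25e-05). In the lung it rose from -0.30, -0.28 and 0.14 to 1.86, 2.78 and 2.41 (2.5 ± 0.26, adjusted p = 0.0124). In the liver, aged mouse 2 stood at 2.96 while the others of its age were at 1.51 and 1.69, and the change was 2.18 ± 0.39 (adjusted p = 0.0112). Young and aged mice did not overlap in any of the 3 tissues.

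Oas3 was dim. None of the 3 young kidneys had a signal well above background, so the aged kidneys are given as at least 4.45-fold higher, the bound being the dimmest signal that still counted as well above background on the same arrays (measured change 2.46 ± 0.24, adjusted p = 0.000427). In the lung, Oas3 lay at -4.43, -4.63 and -3.58 in young and -1.78, -0.04 and -2.32 in aged mice. The groups did not overlap and the change was large, 2.84 ± 0.62, but the aged mice were spread and the adjusted p was 0.0581.

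Oasl1 and Oasl2 encode related proteins, and Oasl1 is known as a restraint on the translation of Irf7. In WAT, Oasl1 had the largest change of any member, from -1.04, 0.27 and -0.13 to 3.06, 1.62 and 3.65. No aged mouse overlapped a young one, yet the change of 3.08 ± 0.60 missed the threshold (adjusted p = 0.0609). Oasl2 rose in the kidney by 2.26 ± 0.16 and in the liver by 1.64 ± 0.22 on the log2 scale (adjusted p = 0.000184 and 0.00493), and its change of 1.02 in the lung did not pass (adjusted p = 0.108). Oas1g changed by between 1.79 and 2.11 across the 4 tissues and was called in 3, with an adjusted p in the lung just under the threshold. No OAS gene passed the test of whether the change with age differed between tissues. The lowest adjusted p among them was that of Oasl1, 0.0587.

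**Figure D2:**
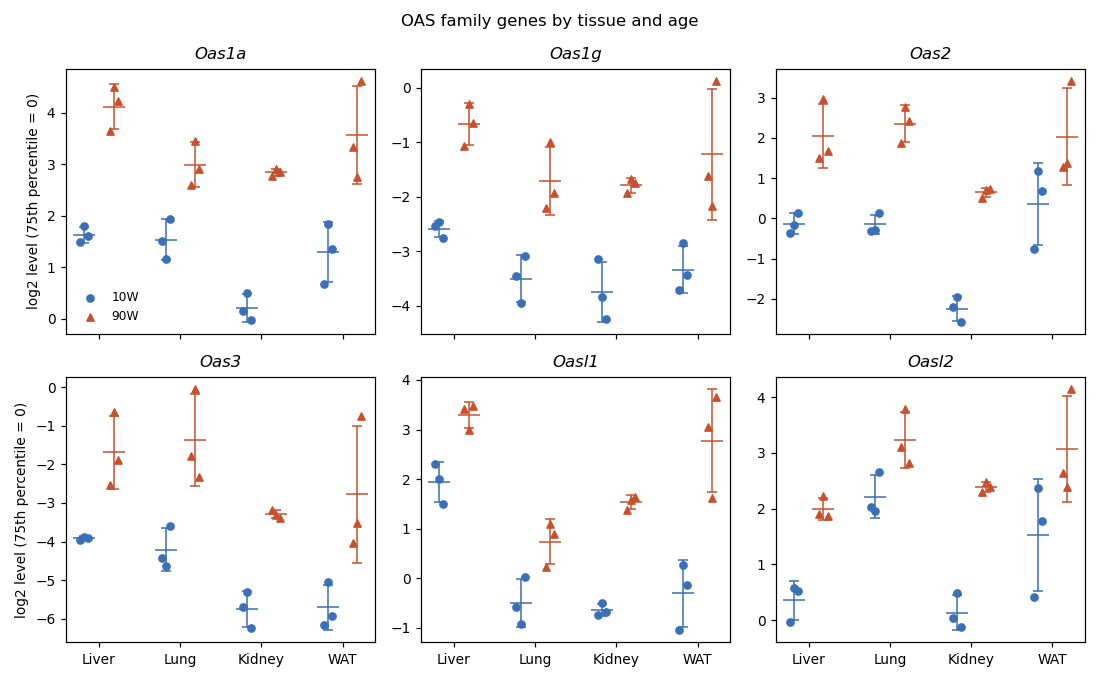
Log2 level of the 6 OAS family genes in each mouse by tissue, young in blue circles and aged in red triangles, with horizontal marks for the mean of 3 mice and bars for 1 SD. In every panel and tissue the 3 triangles lie above the 3 circles, and in WAT aged mouse 3 is the highest.

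Among the transcription factors, Irf7 rose in kidney, liver and lung. Irf7 drives the production of interferon alpha and is itself induced by interferon. It lay at 2.12, 2.45 and 2.16 in young and 4.23, 4.33 and 4.65 in aged kidneys, at 4.42, 4.66 and 4.51 in young and 5.73, 6.40 and 7.15 in aged livers, and at 2.63, 2.52 and 3.0 in young and 3.56, 4.21 and 4.28 in aged lungs. Ages did not overlap in any of the 3, and the changes were 2.16 ± 0.15, 1.90 ± 0.34 and 1.30 ± 0.24 (adjusted p = 0.000151, 0.0117 and 0.0381). WAT differed in that the young mice (3.36, 3.76 and 3.64) and aged mice 1 and 2 (3.39 and 3.58) were alike while aged mouse 3 was at 5.92. Without aged mouse 3 the change of Irf7 in WAT went from 0.71 to -0.10.

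Irf9 and Stat2, which encode parts of the factor that binds the ISRE, and Irf1, a factor more closely tied to interferon gamma, were called in the kidney and in no other tissue. Their changes in the kidney were 1.19, 1.08 and 1.32. In the lung they were 0.23, 0.15 and -0.06, and for each of the 3 the young and aged lungs overlapped. In the liver they were 0.29, 0.56 and 0.58. There every aged mouse lay above every young one for each of the 3 (16.8% of all genes). Another, dimmer probe of Stat2, well above background on all 6 liver arrays, went the other way, with a change of -0.44 in the liver. In the kidney that probe changed by 0.34. For Irf1 and Irf9, but not Stat2, the change with age differed between tissues by the F test across the 4 (adjusted p = 0.0208 and 0.0376).

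The sensors of viral RNA and DNA were also called most often in the kidney. Ifih1 and Ddx58 encode MDA5 and RIG-I, Dhx58 encodes their relative LGP2, and Zbp1 senses nucleic acid in the Z form. All 4 were called in the kidney, with changes of 0.93, 1.35, 2.26 and 1.67. Dhx58 rose there from -3.20, -2.89 and -3.33 to -0.99, -0.82 and -0.82, against a change of 0.38 ± 0.18 in the liver, and the difference between these tissues was 1.88 (adjusted p = 0.00115). Zbp1 was the sensor called in liver and lung as well. It rose from -0.58, -0.12 and -0.39 to 0.86, 1.29 and 1.12 in the lung (1.45 ± 0.17, adjusted p = 0.0148), and by 0.94 ± 0.23 in the liver (adjusted p = 0.0261).

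Of the 9 measured genes that act on viruses directly, 7 were called in the kidney, 4 in the liver, 1 in the lung and none in WAT. Ifit1, Ifit2 and Ifit3 encode related proteins, of which that of Ifit1 recognises foreign RNA ends. Ifit2 rose in the kidney from -2.10, -2.18 and -2.0 to -0.78, -0.55 and -0.32, and in the liver from -2.70, -2.37 and -2.66 to -1.14, -0.89 and -0.91. In the lung, by contrast, it lay at -0.72, -0.84 and -0.96 in young and -0.95, -1.23 and -1.65 in aged mice, a change of -0.44 ± 0.19 that did not pass (adjusted p = 0.204). The difference between lung and kidney in the change of Ifit2 was 1.99 ± 0.40 (adjusted p = 0.00248). Ifit1 and Ifit3 rose in kidney and liver, by 1.72 and 1.05 for Ifit1 and by 1.5 and 1.07 for Ifit3, and their changes in the lung were 0.43 and 0.02.

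Bst2 (tetherin, which holds budding viruses at the cell surface) and Ifitm3 (which blocks viral entry) were called in the kidney alone. Bst2 lay at 1.47, 1.70 and 1.48 in young and 3.47, 3.48 and 3.43 in aged kidneys (1.91 ± 0.09, adjusted p = 5.18e-05). In the liver the ages overlapped, with 5.48, 5.93 and 5.60 in young and 5.59, 5.37 and 6.44 in aged mice. Aged kidneys thus stayed under the Bst2 level of both young and aged livers. Ifitm3 in aged kidneys likewise stayed under the livers. It lay at 3.11, 3.25 and 3.19 in young and 5.14, 5.05 and 4.78 in aged kidneys (1.81 ± 0.11, adjusted p = 0.000119). In the liver it lay at 7.31, 7.30 and 6.95 in young and 7.33, 7.32 and 7.55 in aged mice. The ages did not overlap there, with a change of 0.21 that was not called. The change differed between kidney and liver by 1.79 for Bst2 and by 1.60 for Ifitm3 (adjusted p = 0.00396 and 0.00897).

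Rsad2 (viperin, a radical SAM enzyme that makes a chain-terminating nucleotide) and its genomic neighbour Cmpk2, a mitochondrial nucleotide kinase, stood apart from the other direct effectors. In the kidney Rsad2 lay at 1.47, 0.94 and 1.19 in young and 0.89, 0.82 and 1.25 in aged mice. In the lung it lay at -2.57, -2.19 and -1.96 in young and -0.82, 0.59 and -0.55 in aged mice. It therefore rose in the lung (1.98 ± 0.39, adjusted p = 0.0457), while the ages overlapped in the kidney with a change of -0.21 (adjusted p = 0.330), and the difference between these tissues was 2.19 ± 0.63 (adjusted p = 0.0222), although Rsad2 did not pass the F test across all 4 (adjusted p = 0.0649). Cmpk2 was called in the liver only, where it went from -0.48, -0.52 and -0.90 to -0.30, 0.56 and 0.55 (0.90 ± 0.27, adjusted p = 0.0491), and its ages overlapped in the kidney. Eif2ak2 (PKR, a kinase that halts translation) and Isg20 (an RNA exonuclease) were called in the kidney and nowhere else, at 0.57 and 1.83.

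**Figure D3:**
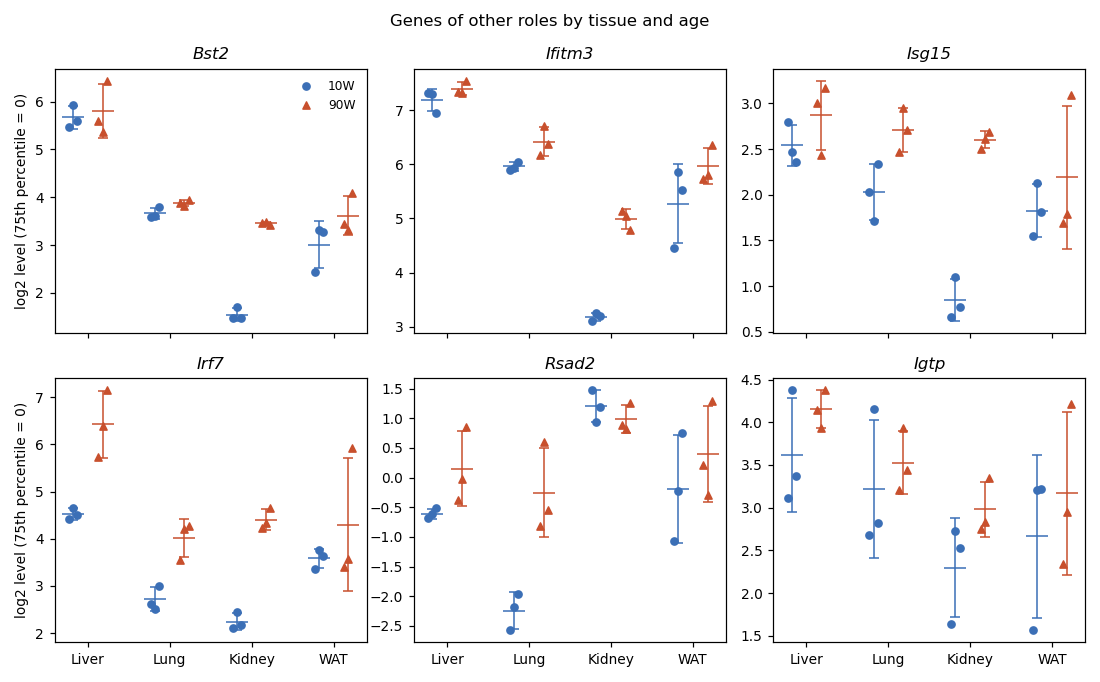
Log2 level of Bst2, Ifitm3, Isg15, Irf7, Rsad2 and Igtp in each mouse by tissue, young in blue circles and aged in red triangles, with marks for the mean of 3 mice and bars for 1 SD. Bst2, Ifitm3 and Isg15 rise in the kidney from the lowest young level of any tissue, Rsad2 rises in the lung, and Igtp overlaps between ages in liver, lung and WAT.

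The ISG15 group holds a ubiquitin-like modifier, the enzyme that removes it and several regulators. Of its 9 members, 8 were called in the kidney, 7 in the liver, 1 in the lung and none in WAT. Isg15, the modifier itself, rose in the kidney from 0.67, 1.1 and 0.78 to 2.5, 2.61 and 2.69 (1.75 ± 0.13, adjusted p = 0.000206). In the liver it lay at 2.79, 2.47 and 2.36 in young and 3.0, 2.44 and 3.16 in aged mice, and the ages overlapped. Usp18, which removes ISG15 and also restrains the type I receptor, was called in both kidney and liver, with changes of 1.52 and 1.04. Rtp4, a receptor-transporting protein, rose by 1.83 and 1.09 in the same tissues. Lgals3bp, a secreted glycoprotein that binds galectin 3, gave the lowest adjusted p of any member in the kidney, where it rose from 3.37, 3.57 and 3.32 to 5.38, 5.44 and 5.45 (2.0 ± 0.09, adjusted p = 4.86e-05). Its rise in the liver was 0.81 ± 0.19 and its change in the lung 0.32, and the kidney exceeded both (adjusted p = 0.00837 and 0.00044).

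Trim30a, a ubiquitin ligase of the TRIM family, was called in 3 tissues. It went from -2.08, -2.03 and -2.32 to 0.20, 0.12 and 0.02 in the kidney, from -1.21, -0.79 and -0.88 to 0.43, 1.28 and 0.54 in the liver and from 0.17, 0.07 and 0.30 to 1.00, 1.51 and 0.98 in the lung. Ages were apart in each, by 2.25 ± 0.11, 1.71 ± 0.26 and 0.98 ± 0.17. Ifi44 gave another order of tissues. It had the fourth largest rise in the liver, from -1.51, -0.98 and -1.42 to 0.24, 0.73 and 1.59 (2.16 ± 0.35, adjusted p = 0.00866), while in the kidney its change was 0.26 ± 0.12 (adjusted p = 0.0924).

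The guanylate binding proteins and immunity related GTPases attack the vacuoles of intracellular microbes and respond strongly to interferon gamma. In the kidney 7 of the 9 measured were called, in the liver 3 (Gbp2, Gbp3 and Gbp5), and in lung and WAT none. Gbp2 rose in the kidney from 0.72, 1.15 and 1.29 to 2.65, 2.54 and 2.73 and in the liver from 0.09, 1.04 and 0.31 to 2.57, 1.99 and 2.40. In the lung its levels overlapped (2.99, 3.54 and 2.96 in young, 3.26, 3.22 and 3.39 in aged mice), and the liver exceeded the lung in the change of Gbp2 by 1.71 ± 0.50 (adjusted p = 0.0312). Igtp, Irgm1 and Irgm2, of the immunity related GTPases, had changes between 0.06 and 0.53 in liver and lung, and none of these passed. Iigp1 was lower in all 3 aged livers (5.96, 5.73 and 6.22) than in the young ones (6.31, 6.75 and 6.38), a change of -0.51 ± 0.20 that did not pass (adjusted p = 0.0976).

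Young mice differed from each other in these GTPases. The median over the 9, relative to the young mean, was -0.37, 0.56 and -0.17 in the young livers and -0.26, 0.44 and -0.32 in the young lungs. The young sample numbered 2 had the highest level of all 9 in the liver and in the lung, of 7 in WAT and of 5 in the kidney. Igtp, for example, was at 4.38 in young liver 2 and at 3.12 and 3.37 in the other two, and at 4.15 in young lung 2 and at 2.68 and 2.82 in the other two. The young sample numbered 1 had the lowest level of all 9 in the kidney and in WAT, of 7 in the liver and of 3 in the lung. Whether a number stands for 1 animal across organs is not stated. The change of Irgm2 in the kidney was 0.68 ± 0.25, on the edge of the threshold (adjusted p = 0.0505), with young kidneys at 1.29, 2.18 and 1.97 and aged kidneys at 2.41, 2.34 and 2.72.

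**Figure D4:**
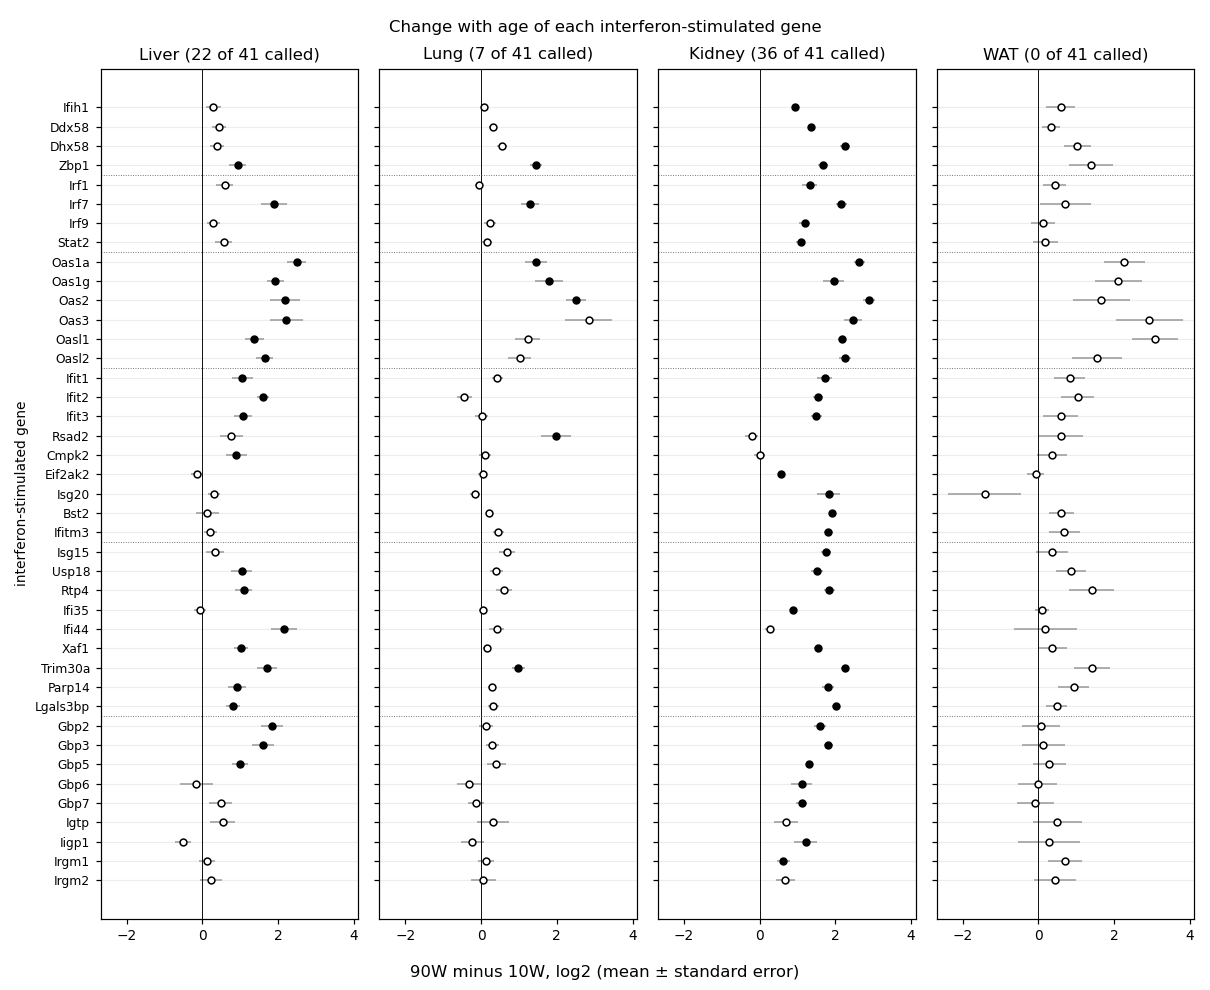
Change from young to aged mice for each interferon-stimulated gene in each tissue, as the log2 difference of the means with its standard error, where filled points were called by limma and open points were not. Of 41 genes, 36 were called in the kidney, 22 in the liver, 7 in the lung and 0 in WAT, and no filled point lies below 0.

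Whether the change with age itself differed between tissues was tested in 1 fit of all arrays. Of the 41 members 16 passed the F test (39.0%), beside 30.5% of the 34745 genes tested. Between pairs of tissues, 15 members differed between lung and kidney, 14 with the larger change in the kidney (7.52% of all genes) and Rsad2 with the larger change in the lung (10.8%). All 13 members that differed between kidney and WAT and all 8 that differed between liver and kidney had the larger change in the kidney (7.19% and 4.44% of all genes). Fewer members differed elsewhere, with 2 between liver and lung (12.2% of all genes), 1 between liver and WAT (14.4%) and none between lung and WAT (2.79%). The F test rested on few mice: between 6 and 17 members passed when 1 mouse number of 1 age was left out of every tissue, and 6 passed without the aged mice numbered 1.

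The young levels differed between tissues as well. With 1 probe per gene in all tissues, 34 of the 41 members had their lowest young mean in the kidney, and for 23 every young kidney lay below every young sample of the other tissues. In aged mice the kidney was lowest for 22 members, and for 10 every aged kidney lay below every aged sample elsewhere. The range of the tissue means had a median over members of 1.94 in young and 1.12 in aged mice. Of the 7 members whose lowest young mean was not in the kidney, Rsad2 and Ifi44 had their highest young mean there. These levels were set across tissues by each array's 75th percentile, and tissue and slide cannot be told apart.

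WAT turned on single mice. In aged WAT, mouse 3 had the highest level of all 41 members among the 3 aged mice, and in young WAT, mouse 1 had the lowest level of 38. The median over members, taken relative to the young mean, was -0.69, 0.43 and 0.25 in the young and 0.29, 0.31 and 1.22 in the aged mice, so that aged mice 1 and 2 lay within the range of the young. Leaving out young mouse 1 lowered the median change from 0.59 to 0.22, and leaving out aged mouse 3 lowered it to 0.28. Isg20 was the exception in young WAT 1, at 6.50 against 3.26 and 2.95 in young mice 2 and 3. In the fit of all 24 arrays, which shares the spread of all tissues, 13 members were called higher in WAT (10.9% of all genes), namely all 6 OAS genes with Dhx58, Zbp1, Ifit2, Usp18, Rtp4, Trim30a and Parp14.

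Single mice also mattered in the lung, for the members and for all genes alike. No member remained called without young mouse 1 or without young mouse 2 (0.0033% and 0.0528% of all genes called higher). Called were 1 without young mouse 3 (0.468%) and 2 without aged mouse 3 (1.85%), beside 2.72% of all genes with every mouse. In the liver 12 members were called without young mouse 1 (6.34% of all genes, and 10.5% with every mouse). In the kidney the number was between 35 and 37 whichever mouse was left out.

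The tissues matched their labels, with Alb, Sftpc, Umod and Adipoq each brightest in liver, lung, kidney and WAT. Some samples carried transcripts of another tissue. Aged lung 1 had the hepatocyte gene Alb at 6.68, against -3.08 to 1.08 in the other lungs. Without this sample 6 members were called in the lung (2.43% of all genes). The adipocyte gene Adipoq lay between 1.68 and 2.87 in young lungs and between -7.54 and -1.18 in aged lungs, and its part in the lung results was not tested. It lay at -2.98, -7.40 and -7.45 in young and at -3.35, -1.28 and -0.53 in aged kidneys. In WAT, Alb lay between 1.57 and 3.09 in young and between -1.79 and 0.26 in aged mice. Young WAT 1 alone among the WAT samples had Umod (-3.31) and Sftpc (-4.96) well above background. The part of these transcripts in the kidney and WAT results was not tested. The lowest correlation between mice of a group was 0.942, in young WAT, and 0.979 in the other tissues.

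Leukocyte transcripts rose in the same samples. All 4 general leukocyte markers (Ptprc, Cd53, Laptm5 and Coro1a) were called higher in kidney, liver and lung (20.6%, 10.5% and 2.72% of all genes). None was called in WAT, where for all 4 every aged mouse lay above every young one (13.7% of all genes). Ptprc, which encodes CD45, went from -0.74, -0.93 and -0.88 to 2.33, 2.22 and 1.88 in the kidney and from 0.12, 0.06 and -0.21 to 2.33, 2.78 and 2.09 in the liver. The summed linear level of the 4 markers was 2.5 to 2.7 in young and 17.2 to 25.8 in aged kidneys, 3.9 to 4.1 and 14 to 34.7 in livers, 26.2 to 27.3 and 58.5 to 75.1 in lungs, and 6.8 to 21.1 and 37.5 to 56.2 in WAT. Of 7 macrophage markers 6 were called higher in both kidney and liver, none in the lung and 2 in WAT (2.01% of all genes). The part of leukocyte number in the changes of the interferon-stimulated genes was not tested.

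**Figure D5:**
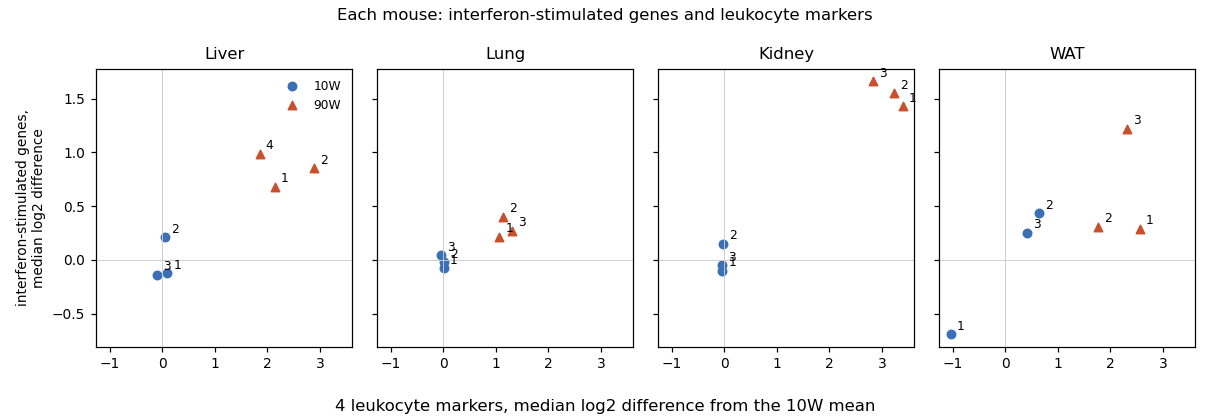
Each point is 1 mouse, young in blue circles and aged in red triangles with the replicate number beside it: the median over the 4 leukocyte markers (horizontal) and over the 41 interferon-stimulated genes (vertical) of the log2 level minus the young mean of the tissue. Aged kidneys lie between 2.82 and 3.39 on the horizontal axis and between 1.43 and 1.66 on the vertical one, and aged WAT lies between 1.77 and 2.56 and between 0.29 and 1.22.

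The rest of the pathway was read from lists of its ligands, receptors, sensors and restraints. Of 19 interferon ligands 10 to 12 could be tested per tissue, and Ifnb1, interferon beta, passed the filter on signal in none. Ifng, which encodes interferon gamma and is made by T and NK cells, was the 1 ligand called higher. Its young kidneys were well above background on 1 of 3 arrays and its young livers on none, so the aged livers are at least 1.77-fold higher (adjusted p = 0.0392), and the change in the kidney was 2.29 (adjusted p = 0.000905). In lung and WAT its change was 2.14 and 2.10 and did not pass (adjusted p = 0.0831 and 0.168), and in young WAT it was well above background on 2 of 3 arrays. A change set against dim arrays is imprecise. Of the T and NK cell markers tested, 5 of 7 were called higher and 2 lower in the kidney (20.6% and 42.6% of all genes). Called higher were 3 of 7 in the liver (10.5%), 4 of 8 in the lung (2.72%) and 3 of 8 in WAT (2.01%). One of them, the T cell gene Cd3g, was called higher in all 4 tissues, by between 1.83 and 3.97. No type I interferon gene was called higher. Of the ligands tested, 4 of 11 in the kidney and 2 of 12 in the liver were called lower, all of type I, shares no larger than those of all genes (42.6% and 17.0%). Interferon alpha genes are near copies of each other, so their probes may share signal.

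Of 6 receptor genes tested, 5 were called higher in the kidney (20.6% of all genes), 2 in the liver (10.5%) and none in lung or WAT. The largest change among the 6 in the liver was 1.60. Ifngr1, the ligand-binding chain for interferon gamma, rose by 1.36 in the kidney and 1.24 in the liver, and Ifngr2 by 1.32 in the kidney. Ifnar2, a chain of the type I receptor, rose by 0.63 in the kidney, and Ifnar1, the other chain, was called in no tissue, with changes between -0.24 and 0.25.

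Upstream of the interferons, Cgas and Sting1, the sensor and adaptor for DNA in the cytosol, rose in kidney and liver, Cgas by 1.77 and 1.18 and Sting1 by 3.02 and 1.65. Mavs, the adaptor of RIG-I and MDA5, fell by 0.52 in the kidney. Of 13 such genes tested in the kidney 7 were called higher (20.6% of all genes) and 6 lower, the latter a share near that of all genes (42.6%). Of 12 restraints tested, 6 were called higher and 2 lower in the kidney, beside 20.6% and 42.6% of all genes. In the liver 4 were called higher (10.5% of all genes), and in lung and WAT 1 each (2.72% and 2.01%). Among them, Socs1 and Socs3, which block receptor signalling, rose by 1.63 and 3.81 in the kidney and were called in no other tissue. Ptpn6, the phosphatase SHP-1 of blood cells, was called higher in all 4 tissues, by between 0.61 and 1.83.

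A further list of 49 interferon-stimulated genes, 43 of them tested in each tissue, gave counts near those of the members: 33 were called higher and 7 lower in the kidney, 19 and 1 in the liver, 7 and 0 in the lung, and none in WAT. The shares called higher were 76.7% in the kidney, 44.2% in the liver and 16.3% in the lung, beside 20.6%, 10.5% and 2.72% of all genes. In WAT 10 had an unadjusted p under 0.05 and were higher (9.86% of all genes). Called in kidney, liver and lung were Epsti1, Ifi204, Ms4a4b, Slfn2 and Slfn8. Cxcl9 and Cxcl10, chemokines that draw T cells, rose in the kidney by 2.44 and 2.15, and Cxcl9 also in the liver by 1.39. Within it directions differed. Samd9l rose in the liver by 1.04 and fell by 0.55 in the kidney, and Gbp10 fell in both.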

How the data were processed

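The members, lists and markers were chosen with earlier results of these data known. The deposited intensity values come from 1-colour Agilent arrays. Per the file headers and the submitters' processing notes, each spot was given by Agilent Feature Extraction 11.0.1.1 a background-subtracted processed signal, not scaled between arrays. The design is a mouse array on mm9, while the methods name a human kit. Control spots and spots marked as uneven or outlying were left out, spots of a probe were averaged, and log2 signals scaled to each array's 75th percentile. Of 56605 probes 32994 matched a RefSeq symbol. A probe was kept where 3 or more of the 6 arrays of the tissue had it well above background. The share above background was 58.6% to 71.1% of an array's probes, and this and the 3 mice per group limit the precision. Ages were compared within tissue, and changes between tissues in 1 fit, by limma 3.58.1 in R 4.3.3 (lmFit, eBayes, Benjamini-Hochberg), tested on simulated data. P-values cover the spread between these samples. An exact permutation test of 3 against 3 cannot go below 0.1. Named were, per tissue, up to 8 called members with the largest change, every call where there were 10 or fewer, members called in 3 tissues, and called pathway genes; others named were chosen after their values were seen. One pathway gene is not reported here.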

Additional observations from a re-analysis of the deposited data

Results flagged for a closer look

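For 19 members the change with age differed between tissues, either in the F test across all 4 tissues or in at least 1 pair (16 in the F test; Ifit1, Ifit3 and Rsad2 in a pair only). The pair with the lowest adjusted p of each is given here as the log2 change in the first tissue minus that in the second.

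Lung minus kidney, the difference was -1.04 for Ddx58, -1.38 for Irf1, -1.29 for Ifit1, -1.99 for Ifit2, -1.48 for Ifit3, -1.69 for Bst2, -1.39 for Xaf1, -1.53 for Parp14 and -1.68 for Lgals3bp. In the same pair it was 2.19 for Rsad2, the 1 member of these with the larger rise in the lung. Liver minus kidney, it was -1.88 for Dhx58, -0.73 for Eif2ak2, -1.60 for Ifitm3 and -0.93 for Ifi35. Kidney minus WAT, it was 1.07 for Irf9, 3.24 for Isg20, 1.39 for Isg15 and 1.69 for Gbp3. The value of Isg20 rests in part on young WAT 1, which stood at 6.50. Liver minus WAT, it was 1.78 for Gbp2.

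Groups of 3 mice are too small for a test of single outlying samples, so none was made.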

How the results depend on the processing

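No member called in a tissue changed direction there under any of the 14 alternatives, and 33 of the 36 calls in the kidney passed under all of them, as did 4 of 22 in the liver and 0 of 7 in the lung. The unpaired t-test named in the methods was run here with Benjamini-Hochberg adjustment over all genes of the tissue. It called 33 members in the kidney, 7 in the liver and 0 in the lung. Of all genes it called 18.3%, 4.73% and 0.326% higher in these tissues. Without the filter on dim probes 2 members were called in the lung (0.666% of all genes). The fit of all 24 arrays called 13 in WAT (10.9% of all genes). Scaling to spike-in spots moved the median over all genes from -0.23 to 0.15 in the kidney, and the median of the members to 1.94 there and to 0.21 in the lung. Another background correction gave 1.38 in the kidney. Leaving out 1 mouse at a time gave 35 to 37 members called in the kidney, 12 to 19 in the liver, 0 to 6 in the lung and 0 to 1 in WAT, and 6 to 17 members that differed between tissues. The sign changed under at least 1 alternative for 2 of 41 members in the kidney, 4 in the liver, 11 in the lung and 15 in WAT, none of them called there. Of these, Rsad2 in the kidney went to 0.18 with spike-in scaling, and Cmpk2 in the kidney to 0.051 with another background correction, 0.019 with quantile normalization, 0.39 with spike-in scaling and between -0.10 and 0.097 with 1 mouse left out. Leaving out 1 mouse, Irf7 in WAT ranged from -0.10 (without aged mouse 3) to 1.17, and Bst2 in the liver from -0.19 (without aged mouse 4) to 0.34. In the lung, Ifit3 went to -0.084 with spike-in scaling and ranged from -0.14 to 0.20 with 1 mouse left out, and Irf1 from -0.11 to 0.0069. The causes were not tested.

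Within a tissue, the deviations of the young and aged samples of one number correlated at -0.17 to 0.18, so the numbers were not taken to pair the ages. This does not show whether organs of one number share a mouse. Over tissues, samples of one age and number correlated at 0.017 (duplicateCorrelation). With the replicate block, 36 members were called in the kidney, 0 in WAT, 0 in the lung and 5 in the liver. Of all genes 20.1%, 1.07%, 0.0033% and 3.83% were called higher in these tissues. In the liver this fit rests on mice 1 and 2 of each age. The block gave a median change of 0.67 in the liver and a change of -0.23 for Bst2 there, and 16 members differed between tissues.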
